A study of Drosophila melanogaster with 36 samples.

Results

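Light hours were compared with dark hours in abdominal fat body of WT Drosophila melanogaster, using 20 of the 36 arrays of the series. The arrays were chosen by their collection time alone, given as ZT, the hours since lights on, and counted past 24 on the second day. The light group holds 10 arrays from ZT 2, 4, 6, 8, 10, 26, 28, 30, 32 and 34, and the dark group holds 10 arrays from ZT 14, 16, 18, 20, 22, 38, 40, 42, 44 and 46. The 4 WT arrays taken as lights came on or went off, at ZT 0, 12, 24 and 36, were left out of the comparison. All flies were adult males that had spent 5 days after eclosion in cycles of 12 h light and 12 h darkness at 25 °C, with collection beginning on the 6th day. The labels do not say whether the lights kept cycling during the 2 days of collection, so light and dark here mean the ZT hours. Flies labelled WT were w; UAS-dnClk/+, and so carried the dnClk transgene with no driver named. Flies labelled dnClk, used below at 8 of the same times, come with no driver named in the sources used here either. Each array held total RNA pooled from 10 fat bodies, and no time was sampled by more than 1 array.

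The fly fat body combines the roles of liver and adipose tissue: it stores lipid and glycogen, detoxifies compounds, and secretes immune peptides and carrier proteins into the blood. It also holds its own circadian clock. In that clock the transcription factors Clk and cyc drive per and tim, whose proteins accumulate in the evening and night and block their own transcription, while vri and Pdp1 close a further loop onto Clk, cwo dampens the targets of Clk, and cry, a blue-light photoreceptor, lets light destroy the tim protein.

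Values are the deposited array intensities, used as log2(intensity + 16), and every difference below is light minus dark on that scale, so a negative one means a lower level in the light. The 10 times of a group stand in for replicates, and the p-values therefore measure the spread between times and pools, part of which may be technical. Fat body markers were bright on every array: apolpp, the apolipoprotein of the blood lipid carrier, had 3641 to 7232 intensity units and the fatty acid synthase FASN1 had 4185 to 8780. Markers of other organs were present in varying amounts, testis above all. The mean of 23 testis transcripts lay between 5.68 and 10.16 log2 units (median 8.74) in the light and between 4.82 and 10.00 (median 6.58) in the dark. Its group means of 8.12 ± 1.78 in the light and 6.94 ± 1.71 in the dark (SD, n = 10 each) did not pass a two-sided permutation test (p = 0.148, adjusted p = 0.552 over 14 array measures). Each testis marker averaged higher in the light, 23 of 23, with a median difference of 1.27. The 23 were read on the same arrays and are not separate evidence. The testis signal thus averaged higher in the light without passing the test. A fit that holds the testis and accessory gland marker means constant is given below for some, not all, of the calls and lists that it changed. A run of 6 arrays late on day 2 also stood apart, 2 of them light (ZT 32 and 34) and 4 dark (ZT 38, 40, 44 and 46): their median intensity was 20.4 to 29.5, against 40.1 to 55.2 on the other 14. In such bulk tissue, fewer cells of a type and less RNA per cell cannot be told apart.

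Of 11261 probe sets tested with limma, 35 (0.311%) differed between light and dark at an adjusted p under 0.05 (Benjamini-Hochberg), 7 (0.0622%) higher in the light and 28 (0.249%) lower in the light. They represent 30 of 8472 tested genes (0.354%), 6 (0.0708%) higher and 24 (0.283%) lower in the light. Those lower in the light differed by 1.31-fold to 5.03-fold (median 1.67), and 7 of them by more than 2-fold. Those higher in the light differed by 1.31-fold to 3.27-fold (median 1.90), and 3 of them by more than 2-fold. Without adjustment, 985 probe sets had a p under 0.05, 209 higher and 776 lower in the light. Only 4 of all tested probe sets (0.0355%) had no overlap between the 10 light and the 10 dark arrays, 1 of them (0.00888%) higher and 3 (0.0266%) lower in the light. With the testis and accessory gland means held constant, 25 of the 35 still passed, 6 of those higher and 19 of those lower in the light. The count and its balance depended on the arrays and on how they were weighted. Leaving out 1 array gave 20 calls (without ZT 40) to 71 (without ZT 18), and leaving out the 6 dim arrays gave 15, 14 of them among the 35. Array weights gave 1450 higher and 975 lower in the light, and adding the 4 transition arrays gave 7 and 7. The plot of called differences shows the probe sets on both days.

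**Figure D1:**
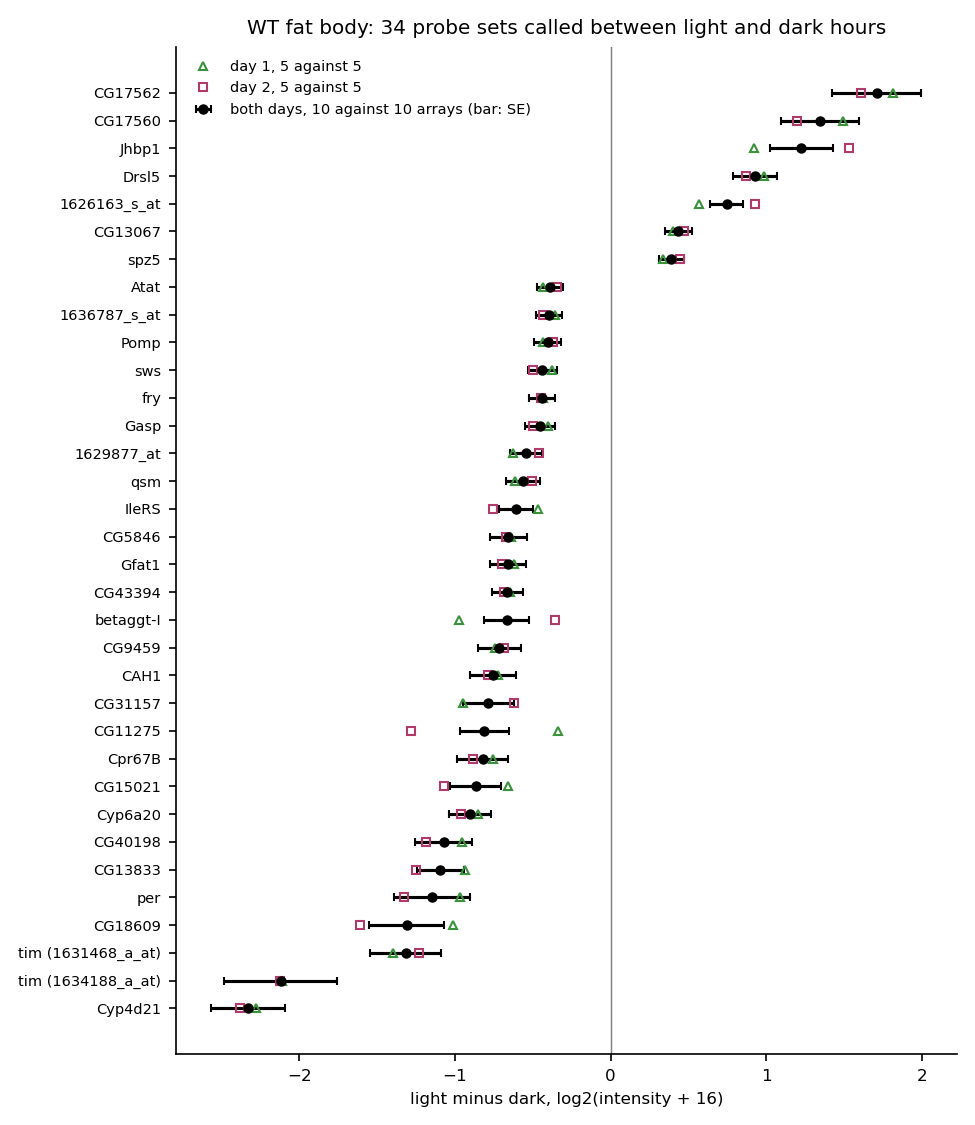
Light minus dark difference in log2(intensity + 16) for 34 of the 35 called probe sets in WT fat body (horizontal axis), 1 per row, named by gene symbol or by probe set where no single symbol was given. Black points are both days together with the SE, triangles day 1 and squares day 2; Cyp4d21 and tim lie at the negative end, CG17562 and CG17560 at the positive end, and each row has both days on the same side of 0.

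Among the 8 core clock genes, tim and per were lower in the light, and the other 6 did not pass the test. Over all tested genes, 0.354% passed. For tim the light arrays had 216 to 2801 intensity units (median 725) and the dark arrays 1935 to 5221 (median 3157). The groups overlapped through the light array at ZT 34 alone, and the other 9 light arrays lay below every dark array. The difference was -2.12 ± 0.36 (SE), a 4.34-fold lower level in the light (limma adjusted p = 0.00968). The second probe set of tim was dim, and it too was called lower in the light (limma adjusted p = 0.00981). Its light arrays had 5.3 to 57.5 units (median 13.9) and its dark arrays 42.9 to 99.8 (median 81.2). With light values under the added constant of 16, its fold is not given: the difference was -1.99 with a constant of 1 and -0.69 with 64.

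For per the light arrays had 32.3 to 146 units (median 55.7) and the dark arrays 78.4 to 319 (median 192). The groups overlapped: 6 of 10 dark arrays lay above every light array, and 6 of 10 light arrays lay below every dark array. The highest light array was at ZT 34 and the lowest dark array at ZT 22. The difference of -1.15 ± 0.25 was a 2.21-fold lower level in the light and stood just inside the threshold (limma adjusted p = 0.0479). It passed in 5 of the 20 fits that left out 1 array, with an adjusted p of up to 0.106, reached without the array at ZT 4. With testis and accessory gland means held constant, per differed by -0.94 (limma adjusted p = 0.127). Both genes, tim by its brighter probe set, were highest at ZT 16 when the days were averaged, and the lowest averages came at ZT 4 for tim and at ZT 0 for per.

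The other clock transcripts overlapped between light and dark hours and were not called. The repressor vri had 140 to 915 units (median 335) in the light and 261 to 1415 (median 854) in the dark, a difference of -1.09 ± 0.37 that did not pass (limma adjusted p = 0.317). Its values climbed from ZT 4 to ZT 10 on the first day and dropped again before lights on, so the last light hours overlapped most of the dark range. The activator Pdp1 differed by -0.40 ± 0.15 (limma adjusted p = 0.435), and cyc by -0.27 ± 0.13 (limma adjusted p = 0.550). Its partner Clk had 70.9 to 227 units (median 167) in the light and 64.5 to 190 (median 102) in the dark, a difference of 0.43 ± 0.19 (limma adjusted p = 0.503). The photoreceptor gene cry had 215 to 376 units (median 279) in the light and 96.3 to 316 (median 164) in the dark. In 8 of 10 dark arrays it lay below every light array, and it averaged highest at ZT 10 and lowest at ZT 18. Its difference of 0.64 ± 0.16 did not pass (limma adjusted p = 0.120). With testis and accessory gland means held constant cry did pass, with a difference of 0.81 (limma adjusted p = 0.00822), as in 2 further alternatives of the 16 run besides leaving out single arrays. Of the same 16 alternatives vri passed in 2, Pdp1 and cyc in 1 each, and Clk and cwo in 0. The repressor cwo gave -0.25 ± 0.23 (limma adjusted p = 0.656), with 0.05 on day 1 and -0.54 on day 2. Of 12 clock kinases and modulators tested, none passed, against 0.354% of all tested genes. Their median difference was -0.11, against -0.01 over all tested genes.

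**Figure D2:**
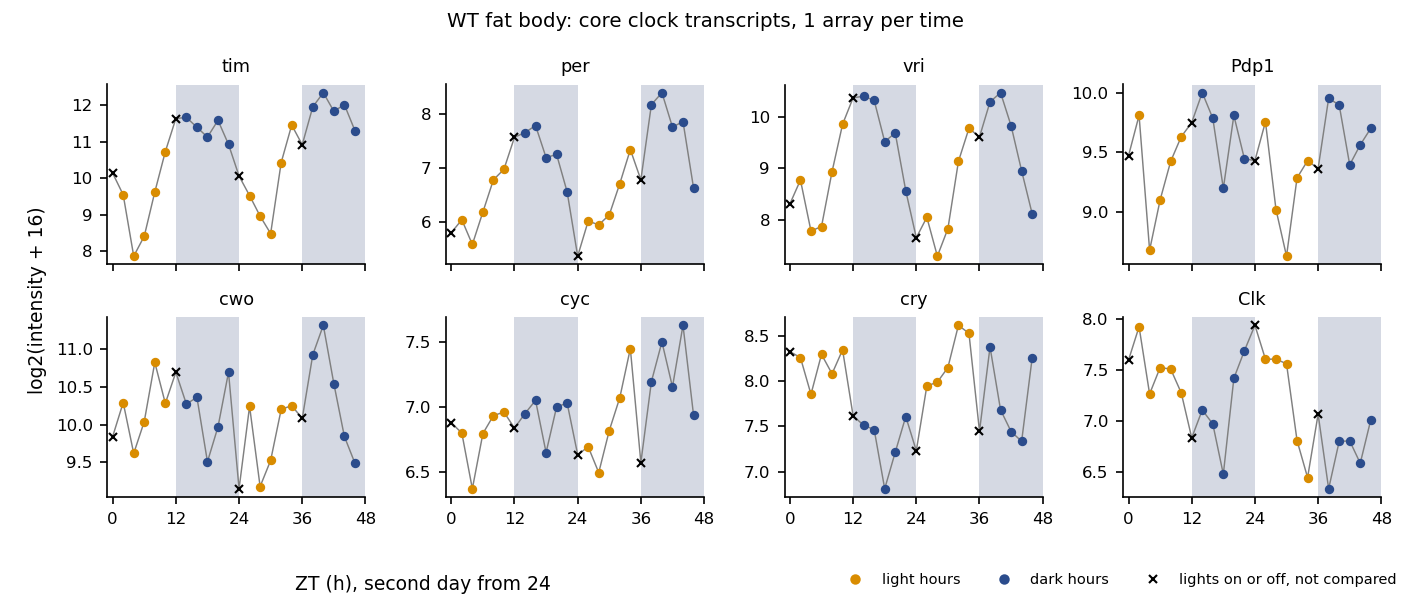
Level of the 8 core clock transcripts in WT fat body as log2(intensity + 16) (vertical axis, own range in each panel) at each ZT in hours (horizontal axis), 1 array per time. Orange points are light hours and blue points dark hours. Crosses are the arrays at lights on or off that were not compared, and grey bands the dark hours. The levels of tim, per and vri climb in the last light hours, and per and vri drop by the last point of each band.

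The smallest adjusted p belonged to Cyp4d21, a cytochrome P450 also known as sxe1 that is expressed more in male than in female fat tissue of the head. Its light arrays had 12.9 to 55.0 units (median 23.0) and its dark arrays 52.4 to 286 (median 218). A single dark array, at ZT 46, reached down into the light range, and the other 9 stood above every light array. The level was 5.03-fold lower in the light on this scale, a difference of -2.33 ± 0.24 (limma adjusted p = 3.91e-05). Since the light arrays are dim, the size depends on the added constant, with -2.90 for a constant of 1 and -1.52 for 64. Cyp4d21 passed with either, and the adjusted p stayed at or under 0.000167 whichever array was left out. At ZT 12 and ZT 36, between the groups, it had already left its light range, as the plot of called transcripts shows. It was the only 1 of 9 tested genes of sex-biased fat body expression and yolk that passed, against 0.354% of all tested genes.

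Cyp6a20, a P450 known for its link to aggression in male flies, was the other P450 that passed. It had 613 to 1110 units (median 709) in the light and 953 to 1870 (median 1352) in the dark. The light array at ZT 10 alone made up the overlap. The level was 1.87-fold lower in the light (-0.91 ± 0.14, limma adjusted p = 0.00357). Over the 65 tested cytochrome P450 genes, 2 passed, both lower in the light, against 0.354% of all tested genes in either direction. The median difference of the list was -0.16, with 46 of 65 lower in the light against 51.7% of all tested genes. With testis and accessory gland means held constant, the list had 36 of 65 lower in the light and a median of -0.03. In that fit 4536 of all 8472 tested genes were lower in the light.

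Of 2 families of lipid enzymes, a few members passed in each. CG17562 and CG17560, which are annotated as fatty acyl-CoA reductases and lie next to each other on 3R, were higher in the light. CG17562 had 722 to 2265 units (median 1701) in the light and 266 to 1524 (median 417) in the dark. On day 1 it still had 1600 units at ZT 10 and 517 at ZT 12. On day 2 it fell within the light hours, at ZT 32 and 34, both among the dim arrays. It had risen again by the last dark hour of each day. The overlap came from ZT 34 in the light and from the last dark hours of each day. The difference of 1.71 ± 0.29 was 3.27-fold (limma adjusted p = 0.00917). CG17560 had 1000 to 3632 units (median 2837) in the light and 653 to 2571 (median 920) in the dark. It had the same light array, ZT 34, as its lowest and a dark array at ZT 22 as its highest dark value. The difference was 1.35 ± 0.25, or 2.54-fold (limma adjusted p = 0.0177). They were the called 2 of 13 tested genes of the reductase family, against 0.354% of all tested genes. The median difference of the family was 0.00.

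CG18609 and CG9459, members of the family of fatty acid elongases, were lower in the light. CG18609 had 814 to 3152 units (median 1308) in the light and 1677 to 5300 (median 4017) in the dark. The groups overlapped, with the highest light array at ZT 2 and the lowest dark array at ZT 38. The level was 2.48-fold lower in the light (-1.31 ± 0.24, limma adjusted p = 0.0147). CG9459 had 852 to 1491 units (median 1082) in the light and 1155 to 2499 (median 1857) in the dark, a 1.64-fold lower level in the light (-0.72 ± 0.14, limma adjusted p = 0.0227). Its call was lost in 6 of the 20 fits without 1 array, those without ZT 6, 8, 20, 32, 40 or 42, with an adjusted p of up to 0.0565. The 2 were the called members among 16 tested elongases, against 0.354% of all tested genes. The median difference of the elongases was -0.10, with 9 of 16 lower in the light against 51.7% of all tested genes. With testis and accessory gland means held constant, 4 of the 16 passed, against 32 of all 8472 tested genes. In that fit 12 of the 16 were lower in the light, against 4536 of all 8472 tested genes, and the median of the 16 was -0.18.

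CG18609 is also an oenocyte marker, and oenocytes, the hydrocarbon-producing cells of the cuticle, can come along with dissected fat body. The mean of 7 oenocyte markers was 11.52 ± 0.20 in the light and 11.84 ± 0.19 in the dark (SD, n = 10 each), the only 1 of 14 array measures that differed (two-sided permutation p = 0.00282, adjusted p = 0.0395). Without CG18609 the other 6 markers averaged 11.69 ± 0.16 in the light and 11.84 ± 0.21 in the dark (two-sided permutation p = 0.0755, outside that family of measures). All 6 averaged lower in the light, by 0.10 to 0.27, and none passed the limma test. The part of oenocyte RNA in the difference of CG18609 was not tested.

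Jhbp1, which encodes a juvenile hormone binding protein, was higher in the light. It had 262 to 621 units (median 333) in the light and 96.7 to 287 (median 143) in the dark. In 9 of 10 light arrays it exceeded every dark array, and the dark array at ZT 46 was the highest of its group. The difference was 1.23 ± 0.20, a 2.34-fold higher level in the light (limma adjusted p = 0.00845). The other 5 tested genes of the juvenile hormone list did not pass. Over all tested genes, 0.354% passed.

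Drsl5, one of the drosomycin-like peptides, had 303 to 586 units (median 452) in the light and 138 to 383 (median 219) in the dark. The overlap came from the dark array at ZT 38, soon after lights off, and 8 of 10 light arrays stood above every dark array. The level was 1.90-fold higher in the light (0.93 ± 0.14, limma adjusted p = 0.00357). It was the only one of 11 tested antimicrobial peptides that passed, against 0.354% of all tested genes, and their median difference was 0.00. With testis and accessory gland means held constant, 2 of the 11 passed, against 32 of all 8472 tested genes, and their median was 0.08. None of 19 genes of the Toll and IMD pathways, which control such peptides, passed, against 0.354% of all tested genes. The Toll ligand family gene spz5 lay outside that pathway list and was 1.31-fold higher in the light (0.39 ± 0.08, limma adjusted p = 0.0442), with 47.0 to 74.6 units in the light and 31.1 to 47.9 in the dark. That call passed in 4 of 20 fits without 1 array, and the adjusted p was 0.0562 with testis and accessory gland means held constant.

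CG13067 was the other named gene higher in the light, by 1.35-fold (0.44 ± 0.09, limma adjusted p = 0.0337), with 418 to 600 units in the light and 302 to 472 in the dark. Its call held in 8 of 20 fits without 1 array. A probe set with no single gene symbol in the annotation, shown by its number in the plot of called differences, had no overlap at all. It had 1706 to 2610 units in the light and 823 to 1507 in the dark (0.75 ± 0.11, limma adjusted p = 0.00249). With only 6 genes past the threshold on this side, the naming rule added the next 4 by p. AsnS, which makes asparagine, differed by 0.85 ± 0.20 (limma adjusted p = 0.0782). Abca3 differed by 0.91 ± 0.20 (limma adjusted p = 0.0523), CG7695 by 0.74 ± 0.17 (limma adjusted p = 0.0641) and SP1173 by 0.38 ± 0.09 (limma adjusted p = 0.0814). None of these 4 passed.

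The genes lower in the light with no overlap between the groups were CG13833, IleRS and fry. CG13833 had 58.9 to 124 units (median 92.6) in the light and 135 to 318 (median 222) in the dark. It was 2.14-fold lower in the light (-1.09 ± 0.15, limma adjusted p = 0.00221). IleRS, the isoleucyl-tRNA synthetase, had 263 to 364 units (median 292) in the light and 365 to 659 (median 443) in the dark, with almost no gap between the groups. It was 1.52-fold lower in the light (-0.61 ± 0.11, limma adjusted p = 0.0144). The gene fry, whose large protein works with the kinase trc in shaping cells, had 128 to 200 units (median 163) in the light and 204 to 290 (median 226) in the dark. It was 1.36-fold lower in the light (-0.44 ± 0.08, limma adjusted p = 0.0198), and the adjusted p was 0.0650 with testis and accessory gland means held constant. It fell outside the naming rule and was chosen after its values were seen.

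**Figure D3:**
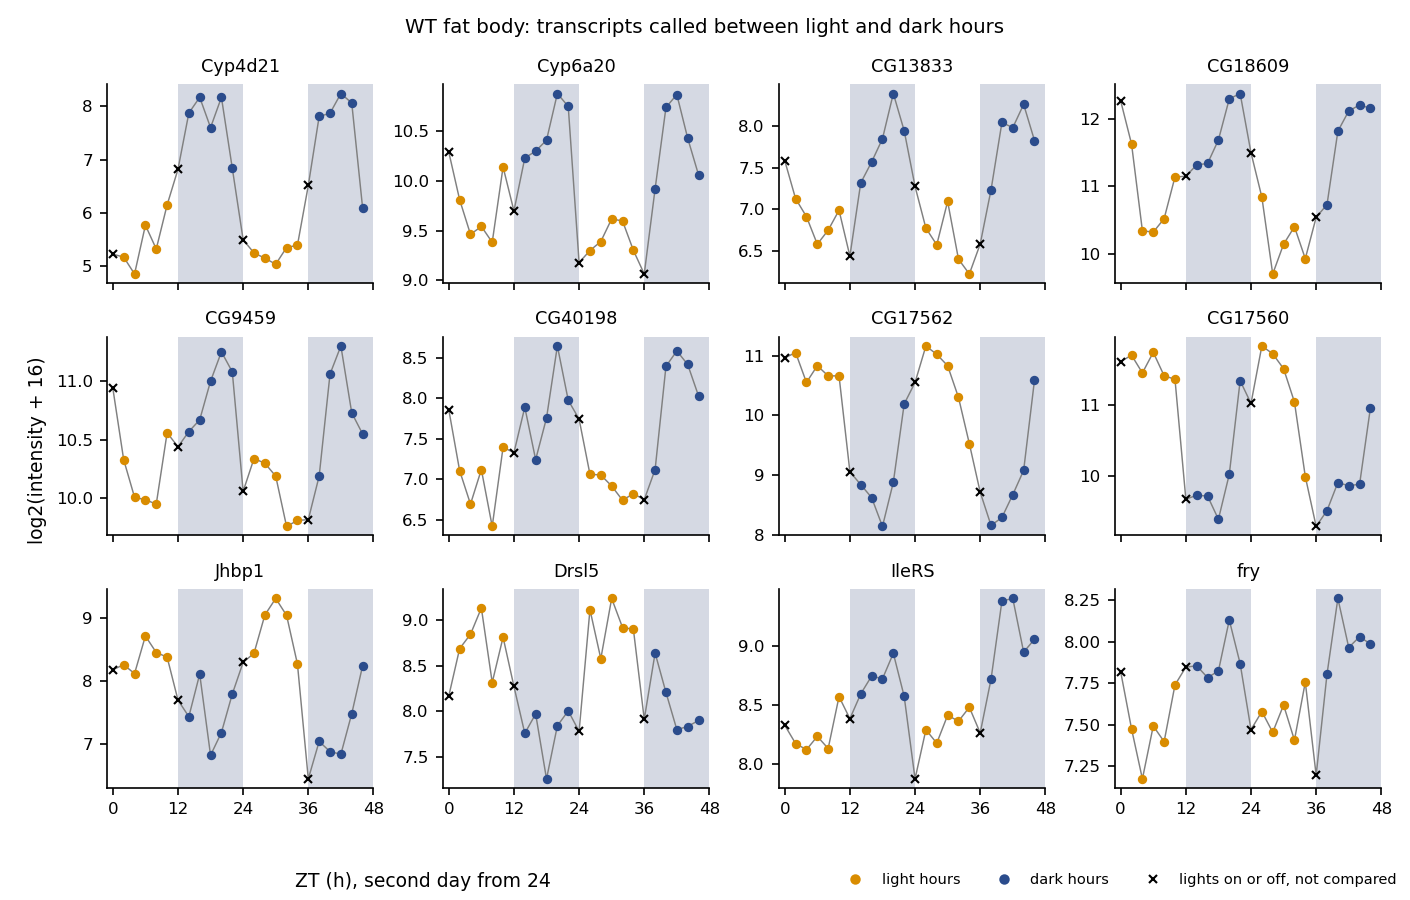
Level of 12 called transcripts in WT fat body as log2(intensity + 16) (vertical axis, own range in each panel) at each ZT in hours (horizontal axis), 1 array per time. Orange points are light hours, blue points dark hours, crosses the arrays at lights on or off that were not compared, and grey bands the dark hours; CG17562, CG17560, Jhbp1 and Drsl5 are high in the light, and the other 8 are high in the dark.

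CG43394 was 1.58-fold lower in the light (-0.66 ± 0.10, limma adjusted p = 0.00357) and CG40198 2.10-fold (-1.07 ± 0.18, limma adjusted p = 0.00968). CG5846 was 1.58-fold lower (-0.66 ± 0.12, limma adjusted p = 0.0144) and CG15021 1.82-fold (-0.87 ± 0.17, limma adjusted p = 0.0209). All but CG15021 passed whichever array was left out; without ZT 40 its adjusted p was 0.0516.

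Gfat1, the first enzyme of the hexosamine pathway that feeds chitin and glycan synthesis, had 170 to 293 units in the light and 276 to 465 in the dark by its called probe set (-0.66 ± 0.11, limma adjusted p = 0.00976). Its other, brighter probe set averaged 10.25 ± 0.54 in the light and 10.12 ± 0.61 in the dark (SD, n = 10 each) and did not pass (0.13 ± 0.25, limma adjusted p = 0.819). The probe sets of Gfat1 thus disagree. The same holds for Atat, an alpha-tubulin acetyltransferase, with -0.39 ± 0.08 by 1 probe set (limma adjusted p = 0.0442) and -0.03 ± 0.12 by the other (limma adjusted p = 0.929). The call of Atat held in 5 of 20 fits without 1 array. Its limma adjusted p was 0.0971 with testis and accessory gland means held constant. Both genes fell outside the naming rule and were chosen after their values were seen.

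The gene qsm, known for carrying light information to clock neurons of the brain, was 1.48-fold lower in the light in fat body. It had 70.9 to 142 units (median 119) in the light and 119 to 216 (median 182) in the dark (-0.56 ± 0.11, limma adjusted p = 0.0227). In 9 of 10 dark arrays it exceeded every light array. Its call was lost without ZT 8, 20, 40 or 42, with an adjusted p of up to 0.0565.

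The carbonic anhydrase gene CAH1 had 452 to 1033 units in the light and 693 to 1368 in the dark, 1.69-fold lower in the light (-0.76 ± 0.15, limma adjusted p = 0.0262). A pair of cuticle genes passed on the same side. The cuticular protein gene Cpr67B had 51.8 to 75.8 units in the light and 51.9 to 199 in the dark (-0.82 ± 0.16, limma adjusted p = 0.0281), and its dark array at ZT 14 was as dim as the light ones. The chitin-binding protein gene Gasp had 95.7 to 148 units in the light and 143 to 219 in the dark (-0.45 ± 0.10, limma adjusted p = 0.0442). Further calls near the threshold were CG31157 (-0.78, limma adjusted p = 0.0442) and betaggt-I, a subunit of an enzyme that adds lipid anchors to proteins (-0.67, limma adjusted p = 0.0479). The phospholipase gene sws (-0.44, limma adjusted p = 0.0420) and the proteasome maturation gene Pomp (-0.40, limma adjusted p = 0.0479) also passed and were chosen after their values were seen. Of these, CAH1 held in 13 of 20 fits without 1 array, Cpr67B in 11, sws in 7, Gasp in 6, CG31157 in 5, and betaggt-I and Pomp in 4 each. With testis and accessory gland means held constant, Cpr67B (adjusted p = 0.0666), betaggt-I (0.0581), sws (0.127) and Pomp (0.141) no longer passed in limma.

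The called transcripts were not at their extremes at the same hour. With both days averaged at each of the 12 times of day, the 28 probe sets lower in the light were highest at ZT 16 in 11 cases and at ZT 20 in 10, with 2 at ZT 14, 2 at ZT 18 and 3 at ZT 22. The clock transcripts per and tim, by its brighter probe set, belonged to the first of these sets, and Cyp4d21, Cyp6a20 and CG13833 to the second. Their lowest averages came at ZT 4 in 10, ZT 12 in 7, ZT 8 in 5, and ZT 0 and ZT 6 in 3 each. The 7 higher in the light were highest at ZT 2 in 3 cases, ZT 6 in 2 and ZT 8 in 2, and lowest at ZT 18 in 5 and ZT 12 in 2. Each of these averages rests on 2 arrays, so neighbouring hours cannot be ordered.

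Since 0.354% of all tested genes passed, a list of the sizes below would hold few or no calls at that share, and a count of 0 says nothing particular about it. Of the 42 gene and marker lists, 8 held a called gene and 34 held none, and 10 of the 30 called genes belong to a list. The share of all tested genes in a list was not counted, and the lists were chosen with earlier results known. The 10 of 30 can therefore not be read as many or few. No gene passed among 9 of glycogen and trehalose, 16 of glycolysis and gluconeogenesis, 12 of lipid storage and lipolysis, 11 of insulin and TOR signalling, 19 of autophagy and 35 of the proteasome. Over all tested genes, 51.7% averaged lower in the light. In the 15 tested genes of fatty acid synthesis 14 averaged lower in the light, with a median of -0.17 and none called. The lipid-activating enzyme Acsl differed most by p among them (-0.50 ± 0.14, limma adjusted p = 0.161). Fatty acid oxidation had 12 of 12 lower in the light, with a median of -0.20, and none called. With testis and accessory gland means held constant, the synthesis list had 11 of 15 lower in the light (median -0.08) and the oxidation list 4 of 12 (median 0.03). In that fit 4536 of all 8472 tested genes were lower in the light.

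Lists of translation and respiration showed small shifts of the same kind without a call. Of all 8472 tested genes, 51.7% were lower in the light, and 4536 were lower once the marker means were held constant. The 69 mitochondrial ribosomal proteins had a median of -0.16, with 65 lower in the light, and -0.05, with 48 lower, once the marker means were held constant. The 67 genes of the respiratory chain and ATP synthase had a median of -0.12 with 50 lower in the light, and 0.03 with 22 lower once the marker means were held constant. The 12 fat body markers themselves had a median of -0.17, with 11 lower in the light, and 0.05 with 4 lower in that fit. The shifts of these lists were smaller, or had the other sign, in the fit that held the marker means constant.

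In detoxification and stress lists, single genes came near the threshold. Gclc, the catalytic subunit that limits glutathione synthesis, had 537 to 1262 units in the light and 922 to 1798 in the dark (-0.60 ± 0.14, limma adjusted p = 0.0768). The chaperone gene DnaJ-1 had 780 to 1067 units in the light and 1047 to 1542 in the dark (-0.35 ± 0.08, limma adjusted p = 0.0768). Ugt36D1, a glycosyltransferase, differed by 1.14 ± 0.28 (limma adjusted p = 0.0994) and the heat shock gene Hsp68 by 0.68 ± 0.19 (limma adjusted p = 0.157). Among 12 sugar-response regulators 11 averaged lower in the light (median -0.19), against 51.7% of all tested genes, and none was called. Hnf4, a nuclear receptor of lipid use, gave -0.26 ± 0.10 (limma adjusted p = 0.399). With the marker means held constant, the list of sugar-response regulators had 10 of 12 lower and a median of -0.16. None of the 30 glutathione transferases, 16 UDP-glycosyltransferases, 14 antioxidant and 12 chaperone genes tested passed, again against 0.354% of all tested genes.

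Each day alone, with 5 light against 5 dark arrays, gave no call by limma. Without adjustment, 493 probe sets had a p under 0.05 on day 1 (smallest adjusted p = 0.161), and 795 had one on day 2 (smallest adjusted p = 0.199). All 35 called probe sets had the same sign on both days, which calling them on both days together partly fixes. Over all tested probe sets 61.7% had the same sign on both days, and among the 50 with the smallest p on day 1 it was 46, or 92%. The differences of the days correlated across probe sets with Pearson r = 0.605 and Spearman rho = 0.427, a description over probe sets that share arrays.

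The difference was almost equal on both days for Cyp4d21 (-2.28 on day 1 and -2.38 on day 2) and for tim (-2.11 and -2.13). No probe set passed the test of a change in the difference between the days (smallest limma adjusted p = 0.955, 379 at an unadjusted p under 0.05). CG11275 differed by -0.81 ± 0.16 over both days (limma adjusted p = 0.0230), with -0.34 on day 1 and -1.28 on day 2. That change between days had an unadjusted p of 0.00110 in limma, which did not pass. The call of CG11275 was lost without ZT 20, 28, 30, 32 or 42, with an adjusted p of up to 0.0596, and its adjusted p was 0.0507 with the marker means held constant. The other genes with the smallest p for a change between days had opposite signs on them: bisc differed by -0.53 on day 1 and 0.24 on day 2, CG7408 by -0.38 and 0.29, CG31495 by -0.36 and 0.31, and CG5815 by -0.44 and 0.13. None of them passed in either test. The called betaggt-I differed by -0.98 on day 1 and -0.36 on day 2. Its unadjusted p for that change was 0.0260 in limma, which did not pass the adjustment.

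**Figure D4:**
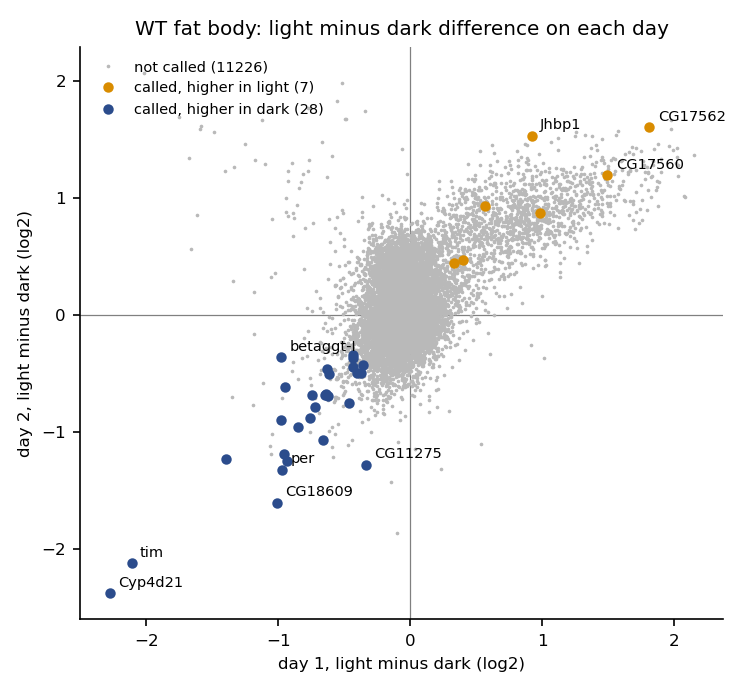
Light minus dark difference in log2 units on day 1 (horizontal axis) and day 2 (vertical axis), 5 light against 5 dark arrays each, for the 11261 tested probe sets of WT fat body. Blue points are the 28 called lower in the light, orange points the 7 called higher and grey points the rest; the called ones lie in the lower left and upper right, among a cloud that stretches along the upper right.

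The dnClk arrays took no part in the light-dark test behind the calls. The mean that chose the tested probe sets was taken over all 36 arrays, dnClk included. The dnClk arrays give the same hours in other flies, with 4 light arrays at ZT 4, 8, 28 and 32 and 4 dark arrays at ZT 16, 20, 40 and 44. These arrays stand apart from the WT ones: fat body markers averaged 9.35 in the light and 9.41 in the dark, against 11.23 and 11.46 in WT at the same times. The bacterial hybridisation controls averaged 10.13 and 10.42 in dnClk, against 12.14 and 12.42 in WT, so the genotypes and the handling of their arrays cannot be told apart. Testis markers averaged 8.78 in the light and 7.71 in the dark of dnClk, against 8.80 and 5.94 in WT at the shared times. WT had 975 called probe sets (8.66%) at these 8 times. That fit also takes its spread from the dnClk arrays and holds fewer WT times than the main comparison. Why its count exceeds the 35 was not tested, and no WT call is drawn from it.

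In dnClk 1 probe set (0.00888%) passed between light and dark, and it was that of Cyp4d21. It was lower in the light by 2.22 on the log2 scale in dnClk (limma adjusted p = 0.000697), against 2.90 in WT at the shared times. Of the 28 probe sets called lower in WT light, 27 were also lower in dnClk light, against 59.9% of all tested probe sets. Of the 7 called higher, 5 were also higher in dnClk light, against 40.1% of all tested. The median difference of the 28 was -0.47 in dnClk and -0.99 in WT at the shared times, and that of the 7 was 0.40 in dnClk and 0.80 in WT. The WT values come from the arrays that gave these calls, and the dnClk values do not, so the sizes are given side by side only.

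No probe set passed the test of the light-dark difference in dnClk against that in WT (smallest limma adjusted p = 0.723, 530 at an unadjusted p under 0.05). For Cyp6a20 it was 0.07 in dnClk and -1.13 in WT (unadjusted limma p = 0.000196). For Drsl5 it was -0.16 in dnClk and 0.70 in WT (unadjusted limma p = 0.000760). Neither passed the adjustment. The same holds for the other genes of smallest p in this test, with unadjusted p between 0.000420 and 0.00138. The bright transcripts whe and CG16826 had 1.03 and 1.16 in dnClk, against -0.31 and -0.27 in WT. Ag5r had 0.98 in dnClk and -0.35 in WT, Moca-cyp 0.24 and -0.46, CG31886 0.21 and -1.17, and CG32212 -0.04 and 0.78. The autophagy gene Atg101 had 0.11 in dnClk and -0.86 in WT, and CG5846 had -0.33 and -1.06. For tim it was -0.99 in dnClk and -2.62 in WT, for per -0.81 and -1.56, and for CG13833 -1.38 and -1.40. CG17562 had 0.73 in dnClk and 1.91 in WT, and CG18609 -0.74 and -1.68.

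**Figure D5:**
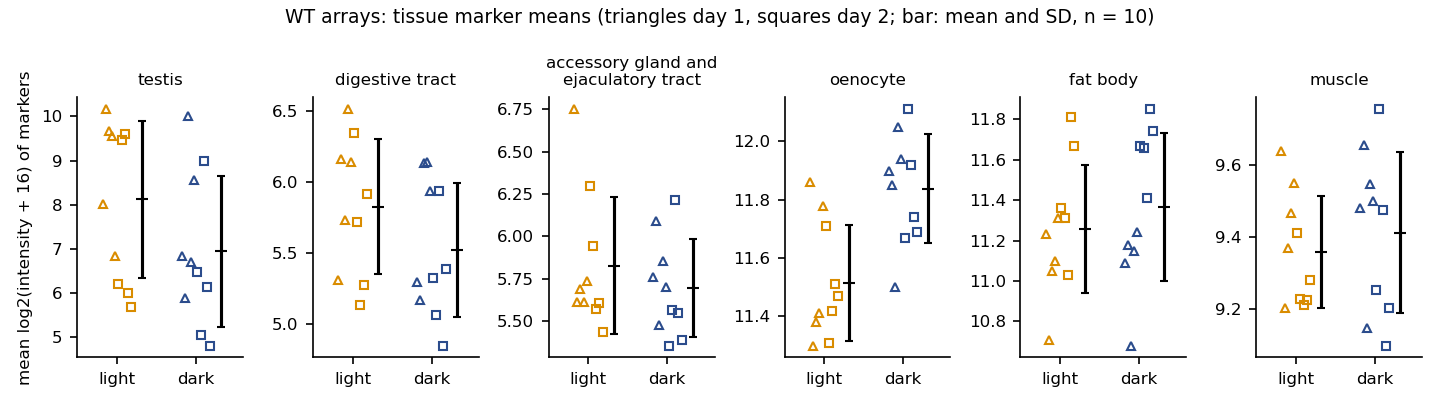
Mean log2(intensity + 16) of tissue marker genes (vertical axis, own range in each panel) on each WT array, light hours left and dark hours right. Triangles are day 1, squares day 2, and bars the mean and SD of 10 arrays; the testis mean spans over 4 log2 units in both groups, and the oenocyte mean is the one that differed.

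The other marker sets did not pass. Accessory gland and ejaculatory tract markers averaged 5.83 ± 0.40 in the light and 5.70 ± 0.29 in the dark, and digestive tract markers 5.82 ± 0.47 and 5.52 ± 0.47 (SD, n = 10 each). All 7 digestive tract genes bright enough to be tested averaged higher in the light (median 0.57), and none passed. The brightest of that list on any array, alphaTry, ran between 114 and 2215 units over the 20 arrays. The part of these tissues in the called differences was not tested beyond the fit with the marker means.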

How the data were processed

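Array intensities on a linear scale, as deposited, had been summarised per probe set with MAS5, per the submitters' processing notes, and no version or genome build is given in the sources used here. Every array had a trimmed mean of 150.0 (2% off each end), and this scaling was kept. All columns matched a sample by name. Control probe sets (183) were set aside and 18769 remained. The 11261 (60%) with the highest mean over all 36 arrays, dnClk included, were tested as log2(intensity + 16). That scale understates changes of dim probe sets. The platform annotation gave 13647 probe sets 1 symbol, 402 several and 4720 none, and 13544 of the first were found in a gene table of assembly Release 6. A gene was represented by its probe set of highest mean (8472 genes).

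Light was compared with dark in limma 3.58.1 (R 4.3.3) over the 20 WT arrays, with Benjamini-Hochberg adjustment over all tested probe sets. The days were also compared separately and in an interaction, and dnClk and WT in an interaction over 16 arrays at 8 shared times. The 14 array measures had permutation tests of 100000 draws. Scripts were tested on simulated data. Precision is limited by the number of arrays. The rule named the core clock genes, up to 20 genes lower and 20 higher in the light by size of difference, filled to 10 by p where fewer passed, those with the smallest p for a change between days or genotypes, and list members with the smallest p. The groups, lists and rule were chosen with earlier results of these data known. The alternatives were other pseudocounts, filters and scalings, covariates, weights, and leaving out arrays or days. Of the called probe sets, 1 is not reported here.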

Additional observations from a re-analysis of the deposited data

Results flagged for a closer look

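The 7 values below, of genes named above or of array measures, lay far from the other 9 arrays of their group, by a gap of more than 0.466 of the group's range. Such gaps arise by chance in about 1 in 20 groups, and 110 groups were looked at. All values are log2(intensity + 16) unless said otherwise. In the light group the array at ZT 34 was the lowest for CG17562 (9.53, next lowest 10.3) and for CG17560 (9.99, next lowest 11.04). The array at ZT 10 was the highest light array for CG5846 (7.04, next highest 6.59), and the array at ZT 46 the lowest dark array for the same gene (6.46, next lowest 7.02). The light array at ZT 4 was the lowest for qsm (6.44, next lowest 6.96). The light array at ZT 26 was the highest for CAH1 (10.04, next highest 9.46) and also for the log2 ratio of 3′ to 5′ signal of the Act5C control (4.42, next highest 3.30).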

How the results depend on the processing

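The count of 35 called probe sets stayed within 1.5 times under pseudocounts of 1 and 64, no filter (27), a filter at 40%, quantile scaling (32), a day term (50), marker means as covariates (36), time of day means (31) and limma's trend and robust options. It was 18 with median centring (1 higher and 17 lower in the light, against 7 and 28), which moved the median difference of all probe sets to -0.17, against 0.02. It was 2425 with array weights (1450 higher and 975 lower), 14 (7 higher and 7 lower) with the transition arrays as 12 against 12, and 0 on day 1 and 0 on day 2 alone. In alternatives chosen after seeing the data it was 15 without the 6 arrays of median intensity under 30 (2 light and 4 dark, on day 2) and 28 without the array of highest testis signal in each group. Leaving out 1 array gave 20 to 71. The extremes were 71 without ZT 18 and 20 without ZT 40, and it was 21 without ZT 8 or ZT 42, 22 without ZT 20, and 23 without ZT 6, 28, 30 or 32. Leaving out 1 array gave 0 to 6 calls on day 1 (6 without ZT 22), 0 to 1 on day 2 (1 without ZT 38 or ZT 46), and 0 to 12 for dnClk against WT (12 without WT at ZT 32). Of the 14 array measures 1 passed on both days together, and 0 on day 1 and 0 on day 2. All 35 kept their direction in each of these fits that tested them, and 19 passed whichever array was left out. The only reversal was cwo, with 0.05 (0.0491) on day 1. The cause of these changes was not tested. Dim probe sets lie close to background, which limits their differences. Where a group lost an array, its others were taken to vary like the rest. The labels give no replicate numbers shared between groups; pairing the dnClk and WT arrays of 1 collection time as a block, also chosen after seeing the data, left 0 calls for dnClk against WT (smallest limma adjusted p = 0.867, 256 at an unadjusted p under 0.05).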
